A study of Mus musculus with 16 samples.

Results

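Chemokine mRNAs were followed in AML12 cells, a mouse hepatocyte line, through every gene name on the array that starts with Ccl or Cxcl and a number, together with Cx3cl1. The rule gave 34 genes of 30214 gene names, on 46 of 39429 probes, and 25 of the 34 were bright enough to be tested among 19365 genes. The study asked which mRNAs depend on eIF6, a translation initiation factor, for their place on polysomes after insulin. Cells carried a doxycycline-inducible shRNA, either a scramble sequence (labelled scramble+doxy+ins) or one that the methods name as directed against eIF6. All cells, the scramble controls included, were of the same line, which the labels give as male. All were grown with serum, dexamethasone and insulin-transferrin-selenium, received doxycycline for 48 h, and were given insulin for 1 h. The insulin dose is 100 nM in the sample descriptions and 100 mM in another label. Sucrose gradient fractions 1 to 6 were pooled as subpolysomal RNA and fractions 7 to 10 as polysomal RNA. Each of the 4 groups (scramble or eIF6 shRNA, subpolysomal or polysomal) had 4 one-colour arrays of 4 replicate experiments. Each shRNA is represented by lentivirally transduced, drug-selected AML12 cells only, and no array without doxycycline or without insulin was analysed here.

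Chemokines are small secreted proteins that bind receptors coupled to G proteins and direct the migration of white blood cells along a gradient. The CC family (Ccl genes) acts mainly on monocytes, lymphocytes and eosinophils, and the CXC family (Cxcl genes) on neutrophils or on lymphocytes, while Cx3cl1 is made as a membrane-bound stalk that can be shed. In hepatocytes several of these genes are induced through NF-kB or interferon signalling, and many of their mRNAs are short-lived.

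The targeted gene was lower on polysomes only. Eif6 signal on the log2 scale was 12.96, 12.94, 12.96 and 12.94 on the scramble polysomal arrays and 11.89 ± 0.08 (SD, n = 4) on the eIF6 shRNA polysomal arrays, a change of -1.05 ± 0.08 (SE, limma, adjusted p = 1.45e-07). In subpolysomal RNA it lay between 11.53 and 11.66 with scramble and between 11.49 and 11.74 with the eIF6 shRNA (change 0.02 ± 0.08, adjusted p = 0.917). The 2 subpolysomal groups overlapped. Between 20177 and 24953 probes were well above background on an array, and no spot was saturated. Arrays of a group correlated at 0.988 to 0.995. Of 8 hepatocyte markers, Hnf4a, Apob, Trf, Ttr, Krt8 and Krt18 were above background on all 16 arrays, whereas Alb, the gene of serum albumin, reached it on 7 and Apoa1 on 2.

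Detection came first. Of the 34 genes, 20 were well above background on all 16 arrays, which is 58.8% against 48.3% of all gene names. The 20 are Ccl2, Ccl5, Ccl6, Ccl7, Ccl8, Ccl9, Ccl17, Ccl19, Ccl25, Ccl27a, Cx3cl1, Cxcl1, Cxcl2, Cxcl3, Cxcl5, Cxcl10, Cxcl11, Cxcl12, Cxcl16 and Cxcl17. By group, 20 genes were seen on all 4 scramble subpolysomal arrays, 21 on all 4 scramble polysomal arrays, and 20 in each of the eIF6 shRNA groups (58.8% to 61.8%, against 50.4% to 54.9% of all names). The additional gene was Cxcl13, a B cell attractant, which was above background on 3 scramble subpolysomal and 4 scramble polysomal arrays and on none of the 8 arrays with the eIF6 shRNA. Ccl1 was seen on 3 polysomal arrays of either shRNA and on no subpolysomal array. Ccl28 was seen on 2 polysomal arrays of either shRNA, and Ccl12 on 1 scramble and 2 eIF6 shRNA subpolysomal arrays and on no polysomal array. Cxcl9 was seen on 2 eIF6 shRNA polysomal arrays only. Ccl3, Ccl22 and Ccl24 each reached background on 1 eIF6 shRNA polysomal array and were not tested. Ccl4, Ccl11, Ccl20, Ccl26, Cxcl14 and Cxcl15 were above background on no array, so that the eotaxins Ccl11 and Ccl26 and the dendritic cell attractant Ccl20 have no measured level here. A spot that is not well above background sets an upper limit and does not show that a transcript was missing.

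**Figure D1:**
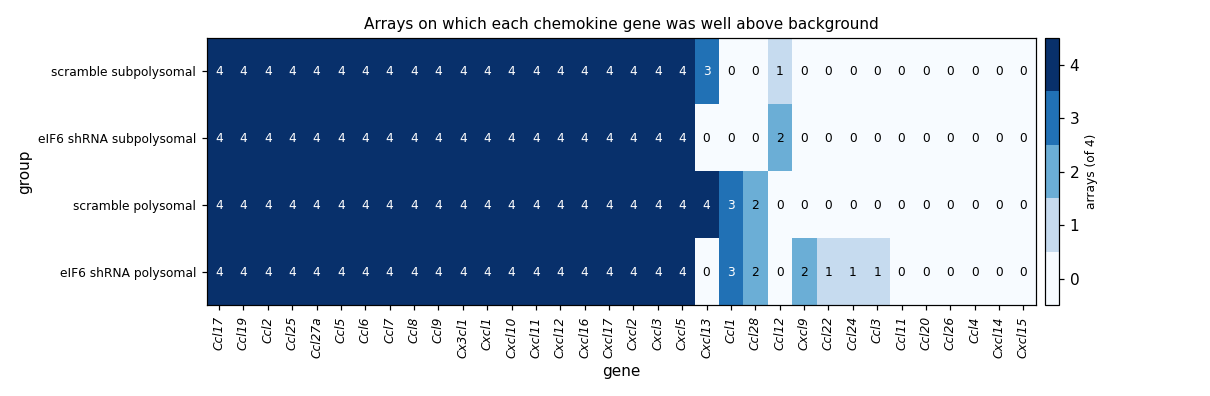
Number of arrays, of 4 per group, on which each of the 34 chemokine genes was well above background on at least 1 probe (rows are groups, columns are genes, darker is more arrays). The 20 genes at the left reached background on all 16 arrays, and the 6 at the right on none.

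The eIF6 shRNA went with higher signal of some chemokines and lower signal of others, in both fractions. In polysomal RNA, 9 of 25 genes were higher and 5 were lower (limma, adjusted p under 0.05), which is 36% and 20%, where 11.1% of all 19365 genes were called higher and 10.7% lower. In subpolysomal RNA 9 were higher and 6 lower (36% and 24%), beside 11.9% of all genes higher and 12.4% lower. The median change of the 25 genes was 0.15 in polysomal and 0.27 in subpolysomal RNA, and that of all genes 0.02 in both. Among the 20 genes above background on all arrays, 8 were higher and 4 lower in polysomal RNA, and 8 higher and 5 lower in subpolysomal RNA. The share of all genes above background on all arrays was not computed. With a filter that asked for all 4 arrays of a group, 13.2% of all genes were higher and 12.4% lower on polysomes. In subpolysomal RNA that filter gave 14.4% higher and 14.1% lower. The 9 higher on polysomes were Ccl2, Cxcl1, Cxcl2, Cxcl3, Cxcl5, Cxcl9, Cxcl10, Cxcl16 and Cxcl17, and the 5 lower were Ccl5, Ccl17, Cx3cl1, Cxcl12 and Cxcl13. Cxcl9 and Cxcl13 passed the filter on dim probes only through the groups in which they were higher. Scaling to 8 spike-in probes put the median of all genes at -0.48 in polysomal and at -0.24 in subpolysomal RNA. Then 1 chemokine gene was called higher (Cxcl9) and 3 lower (Ccl17, Cxcl12 and Cxcl13) on polysomes, beside 0.511% of all genes higher and 5.39% lower. In subpolysomal RNA 0 were higher and the same 3 lower, beside 0.201% and 1.78% of all genes. None of the 8 higher genes above background on all arrays was called under that scaling. Nor was the targeted gene Eif6 on polysomes (-1.37, limma, adjusted p = 0.104), so that a lost call there does not show that a gene is unchanged. Measured from the median of all genes, the 12 polysomal and the 13 subpolysomal calls among genes above background on all arrays kept their side with scaling to the 75th percentile and with the normexp background correction. Spike-in scaling, which like the 75th percentile only shifts whole arrays, gives nearly the same values from that median by construction. In such bulk RNA, fewer cells that make a transcript and less transcript per cell cannot be told apart.

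**Figure D2:**
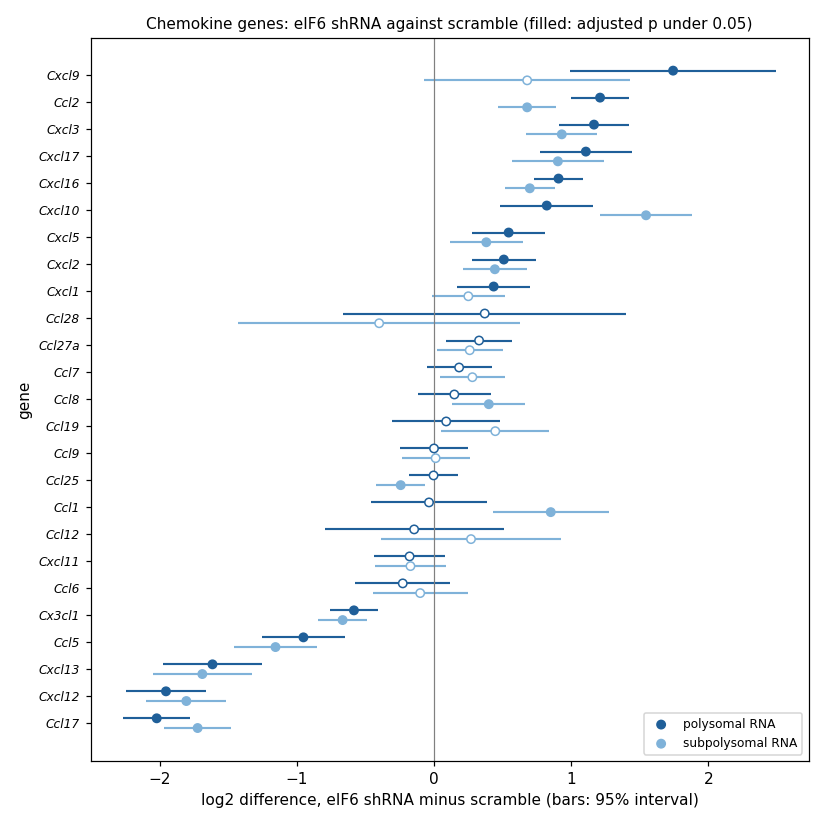
Log2 difference of eIF6 shRNA minus scramble for the 25 tested chemokine genes in polysomal (dark) and subpolysomal RNA (light), with 95% intervals from the limma fit over 4 arrays per group, and filled points for an adjusted p under 0.05. Among genes above background on all arrays the polysomal values run from Ccl17 (-2.02) to Ccl2 (1.21), Cxcl9 and Cxcl13 include groups with no array above background, and for most of them the intervals of the 2 fractions overlap.

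Ccl2, the monocyte attractant that binds Ccr2, was higher with the eIF6 shRNA in both fractions. Its log2 signal was 17.18, 17.16, 16.92 and 17.21 on scramble polysomal arrays and 18.32, 18.39, 18.28 and 18.32 on eIF6 shRNA polysomal arrays. In subpolysomal RNA it was 16.45, 16.70, 16.62 and 16.27 with scramble and 17.12, 17.09, 17.21 and 17.34 with the eIF6 shRNA. The groups did not overlap in either fraction. The change was 1.21 ± 0.10 on polysomes (SE, 2.32-fold, limma, adjusted p = 4.06e-07) and 0.68 ± 0.10 in subpolysomal RNA (1.60-fold, adjusted p = 1.62e-04). Its neighbour Ccl7, another ligand of monocyte receptors, changed by 0.18 ± 0.11 and 0.28 ± 0.11, neither of which passed the adjustment (adjusted p = 0.291 and 0.0817). With the normexp background its subpolysomal change passed the limma test (0.31, adjusted p = 0.0289). Ccl7 lay between 11.43 and 11.86 on scramble and between 11.66 and 12.03 on eIF6 shRNA polysomal arrays, and between 11.93 and 12.10 against 12.14 and 12.38 in subpolysomal RNA, where the groups were separate. Ccl8, from the same row of genes, was higher in subpolysomal RNA only (0.40 ± 0.12, adjusted p = 0.0301). Its polysomal difference was 0.15 ± 0.12 (adjusted p = 0.479). Its 4 subpolysomal values were 6.94 to 7.30 with scramble and 7.44 to 7.83 with the eIF6 shRNA. The Ccl8 call did not hold without replicate 1, 2 or 3 (adjusted p = 0.120, 0.1000 and 0.0975), with scaling to the 75th percentile (adjusted p = 0.0655) or with the replicate number as a block (adjusted p = 0.0568). Without replicate 1, 2 or 3 its change was 0.37, 0.44 and 0.46. In these fits 6.3%, 6.86% and 7.01% of all genes were called higher in subpolysomal RNA, against 11.9% with all arrays.

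Cxcl1, Cxcl2, Cxcl3 and Cxcl5 are the neutrophil attractants that bind Cxcr2 and lie in a cluster on chromosome 5 (mm9, probes from 91190490 to 91334593) that also holds Cxcl15, which was above background on no array. The 4 were called higher on polysomes, and Cxcl2, Cxcl3 and Cxcl5 in subpolysomal RNA as well. Cxcl3 moved most, from 6.20, 6.02, 6.15 and 5.82 on scramble polysomal arrays to 7.38, 7.35, 7.09 and 7.03 with the eIF6 shRNA (1.17 ± 0.12, 2.25-fold, adjusted p = 3.94e-06), and from 5.96, 6.31, 6.24 and 5.89 to 6.97, 6.95, 7.06 and 7.15 in subpolysomal RNA (0.93 ± 0.12, adjusted p = 4.97e-05). Cxcl2 was 8.43, 8.47, 8.54 and 8.11 against 9.11, 8.81, 9.03 and 8.64 on polysomes and 9.97, 9.82, 9.90 and 9.87 against 10.34, 10.38, 10.31 and 10.30 in subpolysomal RNA. These groups were separate, with changes of 0.51 ± 0.11 (adjusted p = 0.00312) and 0.44 ± 0.11 (adjusted p = 0.00831). Cxcl5 was 10.92, 10.92, 11.11 and 10.47 against 11.54, 11.44, 11.45 and 11.17 on polysomes, a change of 0.54 ± 0.12 (adjusted p = 0.00477), and 11.24, 11.24, 11.11 and 11.05 against 11.51, 11.43, 11.58 and 11.66 in subpolysomal RNA (0.38 ± 0.12, adjusted p = 0.0370). Cxcl1 was 12.79, 12.73, 13.13 and 12.44 against 13.40, 13.18, 13.31 and 12.95 on polysomes. These groups overlapped, and the change was 0.44 ± 0.13 (adjusted p = 0.0209), which became -0.04 with spike-in scaling. Under that scaling the polysomal values of Cxcl2, Cxcl3 and Cxcl5 were 0.04, 0.77 and 0.11, and none of the 4 genes was called (adjusted p from 0.598 to 0.965). Without replicate 1 the polysomal changes of Cxcl1, Cxcl2 and Cxcl5 had adjusted p = 0.179, 0.0507 and 0.0604, and without replicate 2 that of Cxcl1 had adjusted p = 0.136. The subpolysomal change of Cxcl5 had adjusted p = 0.124, 0.102 and 0.155 without replicate 1, 2 and 3, and that of Cxcl2 had adjusted p = 0.0955 and 0.0517 without replicate 2 and 3. The fits without replicate 1, 2 or 3 also called fewer of all genes in both fractions. In subpolysomal RNA Cxcl1 was 14.45, 14.50, 14.42 and 14.55 against 14.72, 14.76, 14.71 and 14.75 (0.25 ± 0.13, adjusted p = 0.169).

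The upstream sequences of the genes that moved were read from the RefSeq promoter table (GRCm38.p6), which had an entry for 23 of the 34 genes. The genes with no entry were Ccl2, Ccl4, Ccl5, Ccl7, Ccl11, Ccl24, Ccl26, Cxcl5, Cxcl11, Cxcl16 and Cxcl17, so that 4 of the 9 genes higher on polysomes and 1 of the 5 lower were not looked at. The 6 stretches shown were picked after the values were seen, 4 with a match (Cxcl1, Cxcl2, Cxcl3 and Cxcl10) and, for comparison, those of Cxcl12 and Ccl17, and nothing about a factor follows from them. The letters GGGA and TTCC with any 2 bases between them, an NF-kB type site searched on both strands over 250 bases before the start, occurred in the promoters of 5 chemokine genes (Ccl1, Cxcl1, Cxcl2, Cxcl3 and Cxcl10) and in 1.21% of all 32851 promoters. On the opposite strand the same stretch of Cxcl1, Cxcl2 and Cxcl3 matches again, shifted by a single base, and was counted once per promoter. The letters GAAA, any 2 bases and again GAAA, an interferon type site, occurred in those of Ccl19, Cxcl10 and Cxcl14 and in 2.98% of all promoters. Capitals mark these matches in the stretches below, written 5′ to 3′ on the strand of the gene.
Cxcl1: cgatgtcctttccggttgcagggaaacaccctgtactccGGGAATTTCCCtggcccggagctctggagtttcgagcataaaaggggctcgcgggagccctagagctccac
Cxcl2: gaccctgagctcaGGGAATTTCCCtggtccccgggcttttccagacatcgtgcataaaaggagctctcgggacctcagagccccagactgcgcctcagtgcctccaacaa
Cxcl3: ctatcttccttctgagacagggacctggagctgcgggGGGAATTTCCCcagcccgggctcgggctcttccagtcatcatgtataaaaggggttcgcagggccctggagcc
Cxcl10: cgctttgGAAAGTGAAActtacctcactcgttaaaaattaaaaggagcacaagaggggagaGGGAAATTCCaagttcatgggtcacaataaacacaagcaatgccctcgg
Cxcl12: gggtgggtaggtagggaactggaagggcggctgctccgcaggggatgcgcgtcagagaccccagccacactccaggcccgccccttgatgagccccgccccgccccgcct
Ccl17: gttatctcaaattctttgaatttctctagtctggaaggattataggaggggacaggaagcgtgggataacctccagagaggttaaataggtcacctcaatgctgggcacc

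The 6 stretches are 110 bases long, and those of Cxcl1 (chr5:90891135-90891244, plus strand), Cxcl2 (chr5:90903789-90903898, plus strand), Cxcl3 (chr5:90785991-90786100, plus strand), Cxcl12 (chr6:117168425-117168534, plus strand) and Ccl17 (chr8:94810343-94810452, plus strand) end at the base before the start of the gene. That of Cxcl10 (chr5:92349000-92349109, minus strand) runs from 220 to 111 bases before it. The NF-kB type match starts 71, 97, 73 and 159 bases before the start of Cxcl1, Cxcl2, Cxcl3 and Cxcl10, and the interferon type match of Cxcl10 at 213 bases. A match is a run of letters, and no match in this window says nothing about a factor elsewhere.

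Probes that carry the letters ATTTA, the core of AU-rich elements found in many short-lived mRNAs, were also looked for. The probe letters run as in the mRNA, since AATAAA, the signal for the poly(A) tail, occurs in 12.6% of the 39429 probes and its reverse complement in 4.03%. ATTTA occurred in 7 of the 46 chemokine probes, which is 15.2% against 8.01% of all probes. Of the genes called on polysomes, Cxcl2 and Cxcl5 (higher) and Cxcl12 and Cxcl13 (lower) had such a probe, so that the letters were found in both directions. Cxcl13 was tested only because of the scramble groups. Only the 60 bases of each probe were searched, so that a gene without a match may carry the letters elsewhere in its mRNA. Nothing about these elements follows from the matches. Stretches of 30 bases of these probes are given with ATTTA in capitals.
Cxcl2: atttttaaacctATTTAttcattagtttct
Cxcl5: gctgagatATTTAgatgtctgtagtgtgtc
Cxcl12: ccgtatgtgggaATTTATTTAcctgaaata
Cxcl13: gATTTAttgtcttgcattaaaaccagtaac

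Cxcl16 and Cxcl17 were higher in both fractions as well. Cxcl16, a membrane-bound ligand of Cxcr6 that also takes up oxidised lipoprotein, was 8.07, 7.98, 7.91 and 7.86 on scramble and 8.93, 8.97, 8.81 and 8.74 on eIF6 shRNA polysomal arrays. In subpolysomal RNA it was 7.95, 8.14, 8.11 and 7.87 against 8.72, 8.69, 8.68 and 8.79. The changes were 0.91 ± 0.08 (1.88-fold, adjusted p = 1.35e-06) and 0.70 ± 0.08 (adjusted p = 2.50e-05), with no overlap. Cxcl17, a mucosal chemokine, was 8.65, 8.36, 8.59 and 8.20 against 9.76, 9.74, 9.29 and 9.45 on polysomes and 6.02, 6.79, 6.47 and 6.28 against 7.30, 7.22, 7.43 and 7.23 in subpolysomal RNA. The groups were again separate, with changes of 1.11 ± 0.16 (2.15-fold, adjusted p = 9.87e-05) and 0.90 ± 0.16 (adjusted p = 7.03e-04).

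**Figure D3:**
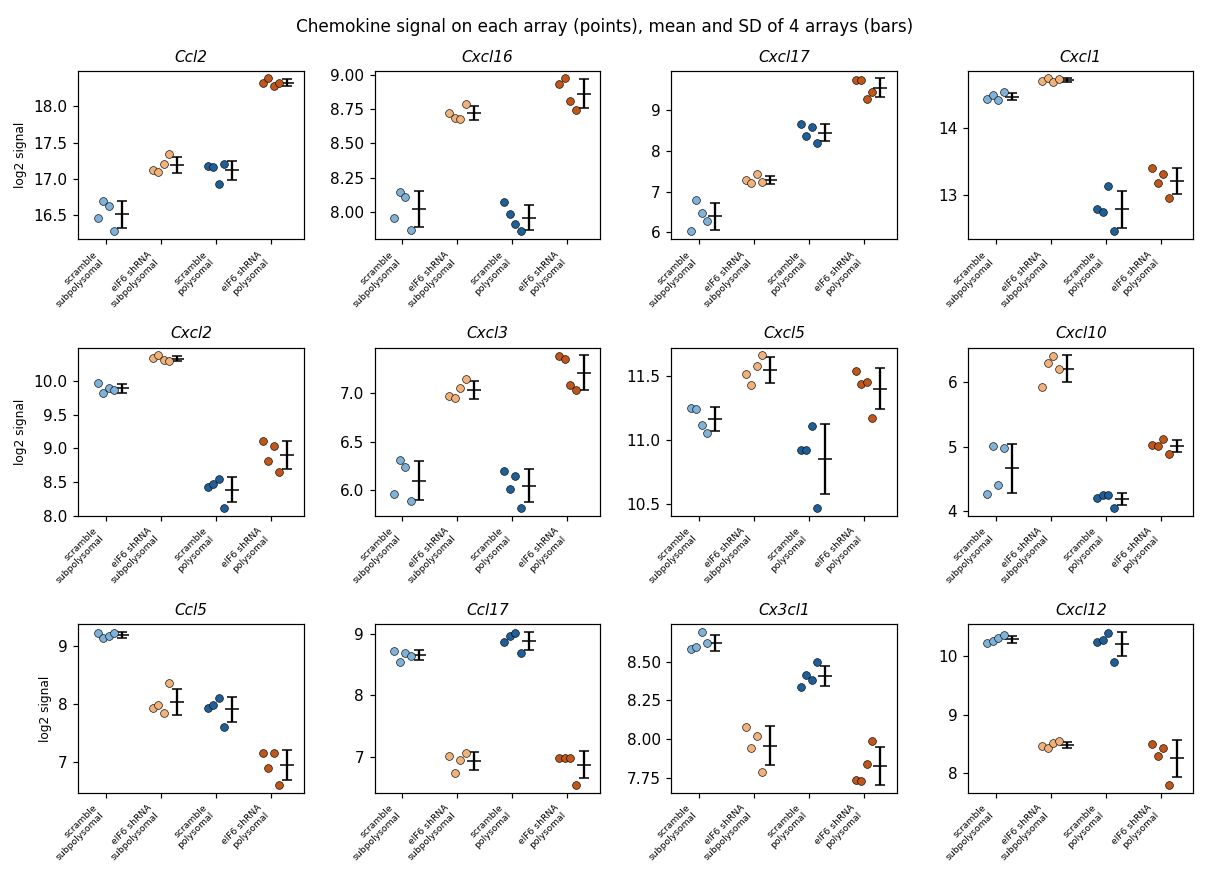
Normalised log2 signal of 12 chemokine genes on each array (points, 4 per group), with the mean and SD of the 4 arrays beside them, for scramble (blue) and eIF6 shRNA (orange) in subpolysomal (light) and polysomal RNA (dark). The axes differ between panels, do not start at 0, and compare arrays within a gene. The upper 8 genes were higher with the eIF6 shRNA on polysomes, and the lower row (Ccl5, Ccl17, Cx3cl1, Cxcl12) was lower in both fractions.

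Cxcl9, Cxcl10 and Cxcl11 are the interferon-inducible ligands of Cxcr3, and their probes did not move as 1 group. Cxcl10 has 2 kept probes on chromosome 5 (mm9, minus strand). The brighter one (chr5:92775781-92775840) was above background on all 16 arrays. It read 7.51, 7.51, 7.63 and 7.19 on scramble and 9.17, 9.11, 9.22 and 8.86 on eIF6 shRNA polysomal arrays, and 7.37, 7.75, 7.81 and 7.55 against 8.89, 9.06, 8.98 and 9.08 in subpolysomal RNA. The groups of this probe were separate by 1.63 ± 0.12 on polysomes (limma over probes, adjusted p = 1.28e-07) and by 1.38 ± 0.12 in subpolysomal RNA (adjusted p = 1.07e-06). The other probe (chr5:92776616-92776675), designed on a different cDNA, was above background on 2 eIF6 shRNA subpolysomal arrays only, and lay between 0.88 and 1.00 on the 8 polysomal arrays. The mean of both probes, which is the gene value used in the counts, gave 0.82 ± 0.16 (adjusted p = 0.00129) on polysomes, from 4.20, 4.25, 4.25 and 4.05 to 5.03, 5.01, 5.11 and 4.89. In subpolysomal RNA the gene value changed by 1.55 ± 0.16 (adjusted p = 4.83e-06), from 4.26, 5.00, 4.41 and 4.97 to 5.92, 6.30, 6.41 and 6.20.

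Cxcl11 lies next to Cxcl10 and was not called in either fraction, with changes of -0.18 ± 0.12 (adjusted p = 0.365) and -0.17 ± 0.12 (adjusted p = 0.346). Its values were 12.31, 12.21, 11.87 and 12.23 on scramble and 11.93, 11.90, 11.85 and 12.23 on eIF6 shRNA polysomal arrays, and 13.72, 13.69, 13.51 and 13.32 against 13.49, 13.45, 13.34 and 13.27 in subpolysomal RNA, so that the groups overlapped in both. Its 2 probes, designed on the same transcript, gave -0.31 and -0.05 on polysomes. Cxcl9 passed the limma threshold on polysomes (adjusted p = 0.00187), from 0.87, 0.91, 0.88 and 0.87 to 3.45, 2.77, 2.06 and 2.22. Only 2 of these 8 values were above background, both with the eIF6 shRNA, and the gene was tested only because of that group, so that its call is no support for a change and no fold is given. With the normexp background the call did not hold (adjusted p = 0.0961).

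**Figure D4:**
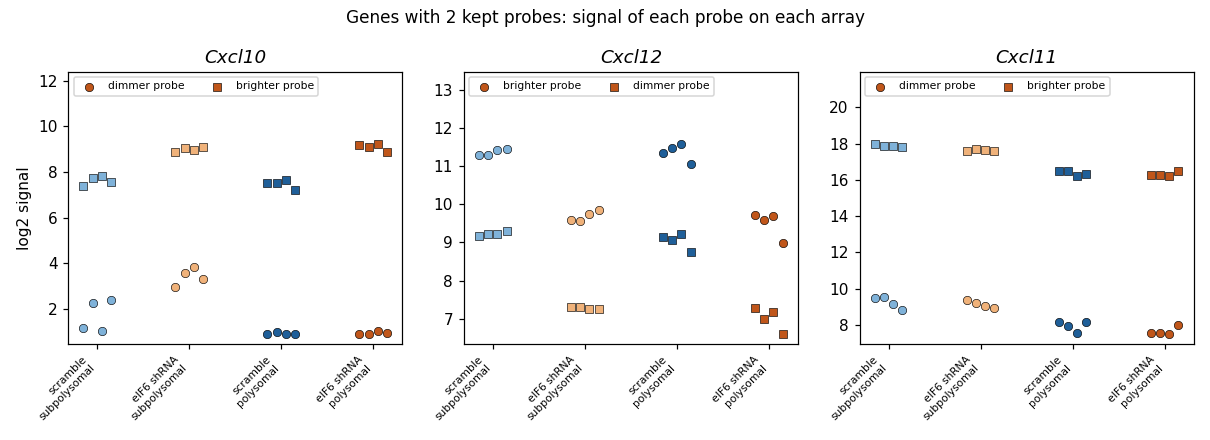
Log2 signal of the 2 kept probes of Cxcl10, Cxcl12 and Cxcl11 on each array (points, 4 per group), colours as in the plot of values by array, with the brighter and the dimmer probe of each gene as different symbols. The dimmer Cxcl10 probe lies at or below 1.00 on the 8 polysomal arrays, whereas both Cxcl12 probes fall with the eIF6 shRNA in both fractions.

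Ccl17 and Cxcl12 were lower by the largest amounts. Ccl17, a ligand of Ccr4 on T cells, was 8.87, 8.97, 9.02 and 8.69 on scramble and 6.98, 6.98, 6.97 and 6.54 on eIF6 shRNA polysomal arrays. In subpolysomal RNA it was 8.73, 8.55, 8.70 and 8.65 with scramble and between 6.73 and 7.06 with the eIF6 shRNA. It fell by 2.02 ± 0.11 on polysomes (4.06-fold, adjusted p = 8.67e-09) and by 1.72 ± 0.11 in subpolysomal RNA (3.30-fold, adjusted p = 7.74e-08), with no overlap. Cxcl12, the ligand of Cxcr4 and of the scavenger receptor Ackr3, was 10.25, 10.28, 10.39 and 9.91 against 8.49, 8.30, 8.43 and 7.79 on polysomes and 10.23, 10.25, 10.31 and 10.37 against 8.45, 8.43, 8.51 and 8.55 in subpolysomal RNA. Its decrease was -1.95 ± 0.14 (3.87-fold, adjusted p = 7.53e-08) and -1.80 ± 0.14 (adjusted p = 2.50e-07). The 2 Cxcl12 probes stand for different transcripts and lie apart (mm9, chr6:117125026-117125085 and chr6:117131227-117131286, plus strand). Both fell on polysomes (-2.04 ± 0.13 and -1.87 ± 0.15) and in subpolysomal RNA (-1.95 ± 0.13 and -1.66 ± 0.15).

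Ccl5 and Cx3cl1 were also lower in both fractions, and Cxcl13 was called lower but was above background on scramble arrays only. Ccl5, a T cell and monocyte attractant, was 7.94, 7.99, 8.11 and 7.61 against 7.17, 6.91, 7.15 and 6.61 on polysomes and 9.22, 9.13, 9.17 and 9.23 against 7.93, 7.99, 7.86 and 8.36 in subpolysomal RNA. The changes were -0.95 ± 0.14 (adjusted p = 1.53e-04) and -1.15 ± 0.14 (adjusted p = 3.02e-05). Cx3cl1, the ligand of Cx3cr1, was 8.34, 8.42, 8.38 and 8.50 against 7.74, 7.73, 7.84 and 7.99 on polysomes (-0.58 ± 0.08, adjusted p = 9.64e-05) and 8.58, 8.59, 8.69 and 8.62 against 8.08, 7.94, 8.02 and 7.79 in subpolysomal RNA (-0.67 ± 0.08, adjusted p = 3.42e-05). Neither gene had an overlap between shRNAs in either fraction. Cxcl13 was not well above background on any eIF6 shRNA array, so only a bound can be given. It read 3.81, 3.87, 4.40 and 3.74 on scramble polysomal arrays, and the bound on the difference from the eIF6 shRNA arrays was 2.23-fold. In subpolysomal RNA it read 4.41, 4.25, 4.45 and 4.44 with scramble, above background on 3 arrays, and the bound was 1.82-fold. Cxcl13 was tested only because of the scramble groups, so that its limma calls are no support for a change. The bounds come from the same values and are no support either. The bound sets the mean of the bright group against the lowest signal well above background, or the signal of the probe where that was higher.

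Markers of stellate cells and fibroblasts were lower in the same groups. All 8 tested markers of 9 on the array were called lower on polysomes with the eIF6 shRNA (median -2.85) and 6 in subpolysomal RNA (median -1.55). Among all genes 10.7% were lower and 11.1% higher on polysomes, and 12.4% lower in subpolysomal RNA. Col1a1, a fibrillar collagen, fell by 3.11 on polysomes (limma, adjusted p = 1.84e-07), and Pdgfra and Pdgfrb, receptors of platelet-derived growth factor, were also called lower there. Pdgfra was above background on all 8 scramble arrays and on none of the 8 arrays with the eIF6 shRNA. It was tested only because of the scramble groups, so that its call is no support for a change. The counts and medians include Pdgfra and the dim Des, which was above background on no scramble and 1 eIF6 shRNA subpolysomal array. The summed linear signal of the 8 markers was 83049 to 120371 on scramble and 12253 to 15471 on eIF6 shRNA polysomal arrays, and 50895 to 57007 against 19141 to 24604 in subpolysomal RNA. Of 6 tested macrophage markers 2 were lower on polysomes (Csf1r by 1.67, Itgam by 0.46), with summed signals of 4279 to 5683 against 4478 to 5223. Of 4 neutrophil markers 1 was lower (S100a8 by 0.91), with sums of 282 to 294 against 244 to 314, and of 8 hepatocyte markers 1 was higher (Ttr by 1.15), with sums of 339461 to 514417 against 373909 to 524135. No tested marker of cholangiocytes (4), endothelial cells (2), T and NK cells (2) or B cells (1) was called in either fraction. The part of these markers in the chemokine changes was not tested.

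The other chemokines on all 16 arrays were not called on polysomes. Ccl6 and Ccl9, mouse myeloid attractants that lie side by side, changed by -0.23 ± 0.16 (adjusted p = 0.390) and by 0.00 ± 0.12 (adjusted p = 0.998) on polysomes. Ccl6 lay at 7.58 to 8.11 against 7.14 to 8.05 there and at 8.50 to 8.83 against 8.50 to 8.70 in subpolysomal RNA. Ccl9 lay at 9.91 to 10.17 against 9.72 to 10.29 and at 9.50 to 9.74 against 9.46 to 9.77. Both genes overlapped between shRNAs in both fractions. Ccl25, a thymic and gut chemokine, was called lower in subpolysomal RNA (-0.24 ± 0.08, adjusted p = 0.0472), from 7.31, 7.37, 7.43 and 7.30 to 7.05, 7.11, 7.08 and 7.20, but its brightest probe gave -0.16 ± 0.09 (adjusted p = 0.264), and without replicate 1, 2 or 3 the gene had adjusted p = 0.210, 0.197 and 0.262. In these fits 7.27%, 7.48% and 7.98% of all genes were called lower in subpolysomal RNA, against 12.4% with all arrays. With the replicate number or the slide as a block Ccl25 had adjusted p = 0.0600 and 0.0575. On polysomes it lay at 6.84 to 7.02 against 6.75 to 7.09. Ccl19 and Ccl27a belong to a repeated stretch of chromosome 4 with near-identical copies, so that their signal may come from more than 1 locus. Ccl19, a Ccr7 ligand, lay at 3.93 to 4.74 against 4.12 to 4.77 on polysomes and at 4.17 to 4.72 against 4.79 to 5.05 in subpolysomal RNA (0.45 ± 0.18, adjusted p = 0.0939). With the slide as a block Ccl19 passed the test there (adjusted p = 0.0259). Ccl27a, a skin T cell attractant, lay at 7.09 to 7.62 against 7.61 to 7.93 on polysomes (0.33 ± 0.11, adjusted p = 0.0504) and at 6.99 to 7.21 against 7.32 to 7.43 in subpolysomal RNA (0.26 ± 0.11, adjusted p = 0.110). The polysomal difference of Ccl27a passed the limma test with the replicate number as a block (adjusted p = 0.0259). It also passed with the normexp background (adjusted p = 0.0330) and with the filter on all 4 arrays of a group (adjusted p = 0.0419). The subpolysomal one passed with the brightest probe (0.55, adjusted p = 0.0107) and with the normexp background (0.23, adjusted p = 0.0353).

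Of the dim genes, Ccl1 was called higher in subpolysomal RNA, from 2.05, 2.37, 2.50 and 1.87 to 3.13, 3.26, 3.24 and 2.56 (adjusted p = 0.00566), but none of these 8 values was well above background and no fold is given. The call did not hold without replicate 1 (adjusted p = 0.0777) or with the normexp background (adjusted p = 0.212). Ccl12 and Ccl28 were called in neither fraction.

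By position, a grouping made after the values were seen, the 11 members on chromosome 5 (mm9) included 8 tested genes, of which 6 were higher and 1 lower on polysomes, and chromosome 11 held 12 members and 9 tested genes, with 2 higher (Ccl2 and Cxcl16) and 1 lower (Ccl5). Shares among the other genes of these chromosomes were not computed, and nothing is read from these counts. On chromosome 8, Ccl22, Cx3cl1 and Ccl17 follow each other between 97274709 and 97335829. Cx3cl1 and Ccl17 were lower in both fractions, and Ccl22 was above background on 1 array.

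Translational efficiency was taken as the polysomal minus the subpolysomal log2 signal, and its change as the difference of that value between eIF6 shRNA and scramble cells. No chemokine gene of 25 was called (limma, adjusted p under 0.05), where 0.403% of all genes were called higher and 1.11% lower. The median was 0.07, against 0.02 for all genes. At an unadjusted p under 0.05 there were 4 genes, namely Ccl2 (0.53 ± 0.14, 95% interval 0.23 to 0.83, adjusted p = 0.0859), Cxcl10 (-0.72 ± 0.22), Ccl1 and Cxcl9. Ccl1 was above background on no subpolysomal array and Cxcl9 on 2 arrays in all, so that no size is given for them. The share of all genes at that unadjusted threshold is not given here, and nothing is read from the count. The Ccl2 value turned to -0.15 with scaling to the 75th percentile and to -0.33 with spike-in scaling, whereas with the normexp background correction it was 0.57 and passed the test (adjusted p = 0.0205), and without replicate 4 it was 0.69 (adjusted p = 0.0345). For Cxcl10 the brighter probe gave 0.25 ± 0.17 and the dimmer -1.69 ± 0.38. Of the other genes above background on all arrays that changed most, the difference between the changes in the fractions was not called for Ccl17 (-0.30, interval -0.64 to 0.05), Cxcl12 (-0.15, interval -0.56 to 0.27), Ccl5 (0.20, interval -0.23 to 0.63), Cxcl16 (0.21, interval -0.05 to 0.46) and Cxcl3 (0.23, interval -0.13 to 0.60). The intervals leave room for changes of efficiency of the sizes they span.

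Polysomal and subpolysomal RNA of the same cells were compared next. In scramble cells 12 of 25 chemokine genes were called lower and 5 higher in polysomal than in subpolysomal RNA, beside 28.4% of all genes lower and 31.7% higher. In eIF6 shRNA cells 8 were lower and 6 higher, beside 28.7% and 32.1% of all genes. All arrays were normalised to 1 distribution, so these differences are relative. Scaling to the 75th percentile put the median of all genes at -0.34 in scramble and at -0.37 in eIF6 shRNA cells. It gave 15 chemokines lower and 2 higher in scramble (43.8% and 21.2% of all genes) and 16 lower and 2 higher in eIF6 shRNA cells (46% and 20.6% of all genes). Spike-in scaling put the median at 1.52 and 1.31. It gave 0 lower and 16 higher of 25 in scramble (2.01% and 68.8% of all genes) and 1 lower and 14 higher in eIF6 shRNA cells (2.47% and 57.8% of all genes). The shares of higher chemokines under spike-in scaling are thus near those of all genes. Measured from the median of all genes, 12 of the 14 scramble calls and 9 of the 11 eIF6 shRNA calls among genes on all 16 arrays kept their side in the quantile, 75th percentile and normexp settings, and with spike-in scaling, whose values follow those of the 75th percentile, the exceptions being Ccl7 and Cxcl5 in scramble and Ccl2 and Ccl7 in eIF6 shRNA cells.

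**Figure D5:**
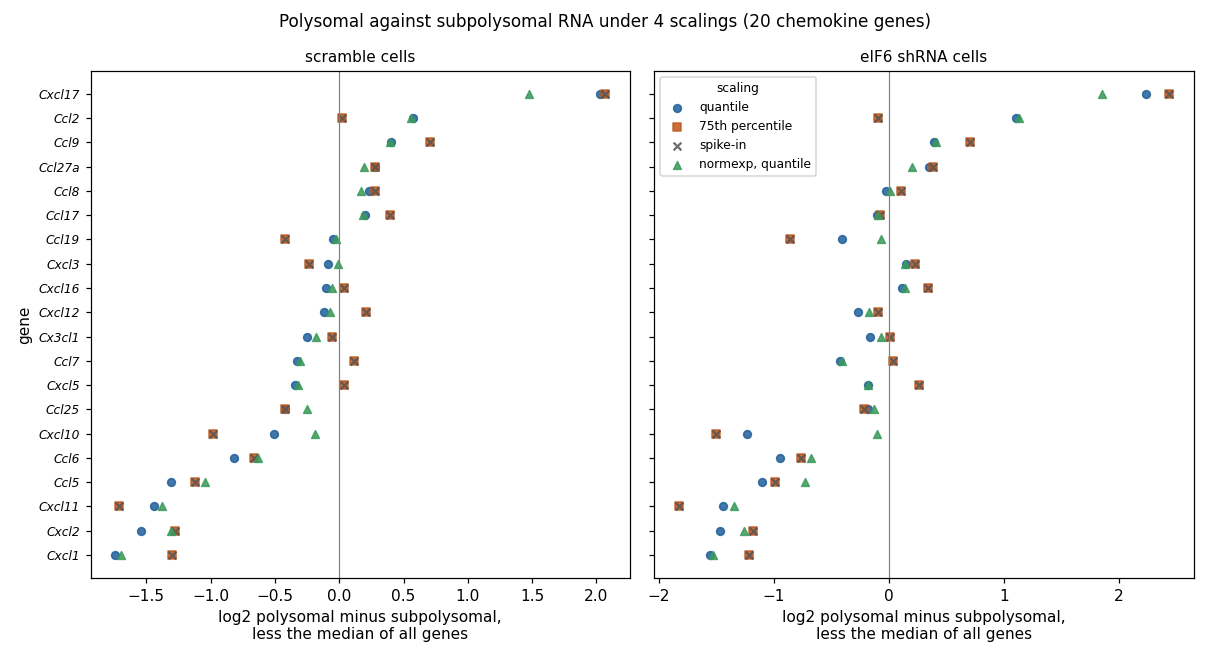
Polysomal minus subpolysomal log2 signal of the 20 chemokine genes on all 16 arrays, less the median of all genes, in scramble (left) and eIF6 shRNA cells (right) under 4 settings (symbols), of which the spike-in and 75th percentile points coincide because both only shift whole arrays. Cxcl17 stands to the right of the median under every scaling, Cxcl1, Cxcl2, Cxcl11, Ccl5 and Ccl6 stand to its left, and Ccl2 is at 0.57 with quantile normalisation and at 0.02 with scaling to the 75th percentile in scramble cells.

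Among the genes above background on all 16 arrays, Cxcl1, Cxcl2 and Cxcl11 lay furthest toward the subpolysomal side. In scramble cells Cxcl1 was 3.27-fold (limma, adjusted p = 2.94e-08), Cxcl2 2.83-fold (adjusted p = 2.79e-08) and Cxcl11 2.65-fold lower on polysomes (adjusted p = 1.58e-07), with SEs of 0.13, 0.11 and 0.12 on the log2 scale. In eIF6 shRNA cells the log2 differences of Cxcl1, Cxcl2 and Cxcl11 were -1.52, -1.44 and -1.41. The array values given above show no overlap between fractions for these genes. Less the median of all genes, the scramble values ranged over the 4 settings plotted from -1.74 to -1.30 for Cxcl1, from -1.54 to -1.28 for Cxcl2 and from -1.71 to -1.38 for Cxcl11. Their neighbours Cxcl3 and Cxcl5 were nearer to 0, at -0.05 ± 0.12 (adjusted p = 0.717) and -0.31 ± 0.12 (adjusted p = 0.0434) in scramble cells. Ccl5 (-1.28 ± 0.14, adjusted p = 2.14e-06) and Ccl6 (-0.79 ± 0.16, adjusted p = 6.85e-04) were on the subpolysomal side in scramble cells, and at -1.07 and -0.91 with the eIF6 shRNA.

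Cxcl17 was on the polysomal side, by 2.06 ± 0.16 in scramble (4.17-fold, adjusted p = 4.59e-08) and 2.26 ± 0.16 in eIF6 shRNA cells (adjusted p = 2.28e-08). Less the median of all genes it was between 1.48 and 2.07 in scramble cells under the 4 settings. Ccl9 was on the same side, with 0.44 ± 0.12 (adjusted p = 0.00419) and 0.43 ± 0.12 (adjusted p = 0.00499). Ccl2 was higher on polysomes by 0.61 ± 0.10 and 1.14 ± 0.10 with quantile normalisation (adjusted p = 9.49e-05 and 2.16e-07), but lower by -0.32 and -0.47 with scaling to the 75th percentile. Among the dim genes, Ccl12 was called lower on polysomes in both cells (adjusted p = 7.40e-05 and 1.17e-05), but only 1 of 4 scramble and 2 of 4 eIF6 shRNA subpolysomal values were above background and no fold is given. Ccl1 in scramble cells, and Ccl28 and Cxcl9 in eIF6 shRNA cells, were called higher on polysomes with 2 or 3 of 4 polysomal and no subpolysomal array above background. For Cxcl10 the gene value was lower on polysomes (-0.47 and -1.20), but the brighter probe gave -0.16 ± 0.12 (adjusted p = 0.262) and 0.09 ± 0.12 (adjusted p = 0.560). Ccl17, Cxcl12 and Cxcl16 were not called between fractions in either cell.

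Receptors were largely out of range. Of 23 chemokine receptor genes on the array 10 were tested, 2 were above background on all 16 arrays and 10 on none. On polysomes Ackr3, which takes up Cxcl12 and Cxcl11 without G protein signalling, was lower by -0.78 (limma, adjusted p = 0.0037) and Ccrl2, a receptor-like protein that presents chemerin, was higher by 0.44 (adjusted p = 0.0166). Both changed the same way in subpolysomal RNA (-0.77, adjusted p = 0.0039, and 0.54, adjusted p = 0.0045). Of 3 chemokines outside the naming rule 1 was tested (Ppbp, a platelet chemokine of the CXC family), with 0.17 on polysomes (adjusted p = 0.371) and -0.05 in subpolysomal RNA (adjusted p = 0.813). It was on the polysomal side, by 1.98 in scramble and 2.19 in eIF6 shRNA cells.

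Of 31 tested genes of the NF-kB pathway and its cytokines, 15 were higher and 5 lower on polysomes (median 0.27), and 9 higher and 4 lower in subpolysomal RNA. Among all genes 11.1% were higher and 10.7% lower on polysomes, and 11.9% higher and 12.4% lower in subpolysomal RNA. The 3 with the largest polysomal changes were Il6, an acute-phase cytokine (-3.15), Il1rap, a subunit of the interleukin-1 receptor (-2.05), and Icam1, an adhesion molecule (1.49). Il1rap was above background on 4 scramble but only 2 eIF6 shRNA polysomal arrays, so that its size is uncertain. Of 20 tested interferon response genes 5 were higher and 4 lower on polysomes (median 0.06), and 4 higher and 3 lower in subpolysomal RNA. The 3 with the largest polysomal changes by size, all called lower, were the antiviral genes Rsad2, Oas1a (-1.45) and Oasl2 (-1.32). Rsad2 was above background on 7 scramble arrays and on no eIF6 shRNA array. It was tested only because of the scramble groups, so that its call is no support for a change, and the counts of lower genes include it. The 5 higher, named after their values were seen, were Oasl1 (0.90), Ifit3 (0.87), Ifih1 (0.85), Stat2 (0.73) and Bst2 (0.46). Both lists thus had members called in each direction, as the chemokines and all genes did.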

How the data were processed

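The authors deposited, for each of 16 one-colour Agilent arrays, the scanner output with an intensity per spot (processed signal, background corrected, not normalised between arrays), and a table of log2 values, which were quantile normalised by the authors and used here only as an alternative. The labels name Feature Extraction 10.7.7.1, and the file headers 10.7.3.1. Gene symbols and mm9 positions of probes came with the scanner output.

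Spots marked as uneven or outliers were dropped (45 values of kept probes, 0 in chemokine probes). A probe entered if 2 or more arrays of any group had it well above background. Log2 intensities were quantile normalised in R 4.3.3, and a gene was the mean of its kept probes. With limma 3.58.1, 4 group means were estimated from all 16 arrays, with eBayes, contrasts between groups, and Benjamini-Hochberg adjustment over 19365 genes at 0.05. The code was tested on simulated data. The number of arrays limits the precision.

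Members, lists and the rule for named genes (members on all 16 arrays or called between shRNAs, and up to 3 called genes of other lists) were chosen with earlier results of these data known. Motifs and counts by chromosome were chosen after the values were seen. Alternatives were 2 other scalings (spike-in probes, 75th percentile of each array), the normexp background (offset 50), the authors' table, 2 other filters, the brightest probe, the replicate number or the slide as a block, and leaving out each replicate. Replicate numbers, which the titles share across groups, were not used as pairs in the main fit.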

Additional observations from a re-analysis of the deposited data

Results flagged for a closer look

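Of 81 groups of 4 arrays looked at among the tested chemokine genes and Eif6, 2 held an array that stood far from the other 3, and chance alone gives about 5% of groups. Ccl17 on eIF6 shRNA polysomal replicate 4 read 6.54, with the other arrays at 6.97 to 6.98. Ccl2 on scramble polysomal replicate 3 read 16.92, with the others at 17.16 to 17.21. Both arrays lie on the same side as the rest of their group with respect to the opposite shRNA.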

How the results depend on the processing

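With scaling to 8 spike-in probes, which shifts the median of all genes, 4 chemokine genes were called on polysomes and 3 in subpolysomal RNA, and the cause was not tested. For translational efficiency 1 gene was called without a filter on dim probes, with the normexp background, with the slide as a block and without replicate 4, namely Cxcl9, Ccl2, Ccl1 and Ccl2, and the count over the fits without 1 replicate ran from 0 to 1. In the same order 0.47%, 2.01%, 1.27% and 0.935% of all genes were lower, and 0.182%, 0.914%, 0.449% and 0.589% higher. Between fractions in scramble cells the fits without 1 replicate gave 11 to 17 calls, with 11 without replicate 2. Beside these, 24.3% to 29.3% of all genes were lower and 26.8% to 32.1% higher. On polysomes these fits gave 11 to 14, with 7.58% to 12.2% of all genes lower and 6.74% to 13.6% higher. In subpolysomal RNA they gave 11 to 15, with 7.27% to 16.1% lower and 6.3% to 15.7% higher. Between fractions in eIF6 shRNA cells they gave 11 to 15, with 24.1% to 29.7% lower and 27.1% to 33.1% higher.

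The replicate number as a block gave 15 chemokine calls on polysomes, 13 in subpolysomal RNA, 0 for translational efficiency, and 16 and 14 between fractions in scramble and eIF6 shRNA cells. Of all genes, 10.3% were lower and 10.8% higher on polysomes, and 11.9% and 11.7% in subpolysomal RNA. For translational efficiency 1.13% were lower and 0.346% higher. Between fractions 28.4% were lower and 31.5% higher in scramble cells, and 28.6% and 32% in eIF6 shRNA cells. Arrays with the same number had correlations of their deviations from -0.21 to 0.41 (median -0.01), and 5 of 16 arrays correlated best with their own number, so the numbers were not used as pairs. Such correlations do not show that arrays with the same number came from separate experiments. Arrays of the same slide had a median correlation of 0.13, against -0.04 for other slides, and with the slide as a block 14, 15, 1, 16 and 15 chemokine genes were called in these comparisons. In the same order 11.4%, 13.5%, 1.27%, 29.4% and 29.7% of all genes were lower, and 11.8%, 13.4%, 0.449%, 32.6% and 33.2% higher.

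The sign of some values turned that were called in the main fit (quantile normalisation, mean of kept probes), in the alternative, or in both. In eIF6 shRNA cells Ccl1, Ccl17, Cx3cl1, Cxcl12 and Cxcl5 were not called between fractions in the main fit. Nor were Ccl19, Cxcl12, Cxcl16 and Cxcl3 in scramble cells. Under scaling to the 75th percentile the polysomal minus subpolysomal difference was -0.78 for Ccl1, -0.47 for Ccl2 and -0.0941 for Cxcl9 in eIF6 shRNA cells, and -0.32 for Ccl2 and -0.0571 for Ccl27a in scramble cells. For Cxcl10 in eIF6 shRNA cells it was 0.0855 with the brightest probe and 0.0856 with the filter on all 4 arrays of a group, both of which leave out the dim probe. Under spike-in scaling the differences in eIF6 shRNA cells were 1.24 for Ccl17, 0.32 for Ccl5, 0.55 for Ccl6, 1.35 for Ccl7, 1.32 for Cx3cl1, 0.10 for Cxcl1, 1.22 for Cxcl12, 0.13 for Cxcl2 and 1.57 for Cxcl5. In scramble cells they were 1.10 for Ccl19, 1.10 for Ccl25, 0.40 for Ccl5, 0.86 for Ccl6, 1.64 for Ccl7, 1.47 for Cx3cl1, 0.23 for Cxcl1, 0.54 for Cxcl10, 1.73 for Cxcl12, 0.63 for Cxcl13, 1.56 for Cxcl16, 0.25 for Cxcl2, 1.29 for Cxcl3 and 1.56 for Cxcl5. The polysomal change of Cxcl1 was -0.0371.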
